A study of Gossypium hirsutum with 45 samples.

Results

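Gohir.A06G069600 and Gohir.D06G068200 are a pair of cotton genes described as myo-inositol oxygenase, one on chromosome A06 and one on D06. They were picked by name, as 2 of 75376 genes in the deposited table, after their levels in these samples had been seen, so their levels and changes are given as a description with no test. The first lies at A06, 17121705 to 17123973, on the minus strand, with a gene length of 1460 bases, and carries the Swiss-Prot name Inositol oxygenase 2. The second lies at D06, 12627331 to 12629552, also on the minus strand, with a length of 1458 bases, and is described by its Pfam domain alone. Coordinates are those of the deposited table, and the build behind them is not stated in the sources used here. Below they are the A06 copy and the D06 copy.

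Upland cotton (Gossypium hirsutum) is a tetraploid with an A and a D subgenome, so that most genes come as an A and a D copy. Seedlings of the cultivar Hengmian HD008 were raised in sterilized sand at 25 °C under 16 h of light and 8 h of dark, and at the stage of 3 leaves they received 10% PEG 6000, which draws water away from roots and stands in for drought. The 45 libraries came from leaf, root and stem taken before PEG (0 min, labelled CK) and 10, 30, 60 or 180 min into it, and each of the 15 groups had 3. The labels name no transgene or mutation in any group and do not say whether replicates were separate plants or pools. Tests therefore see only how far libraries of a group differ, and that may be technical. No untreated plants of the later times were analysed here, so hour of day and handling cannot be told apart from PEG.

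Myo-inositol oxygenase splits the ring of myo-inositol with oxygen and gives glucuronate. A kinase and a pyrophosphorylase turn glucuronate into UDP-glucuronate, the precursor of pectin and xylan sugars, which plants also make from UDP-glucose by a dehydrogenase. In Arabidopsis the family has several genes, and the enzyme is known for keeping inositol low, for feeding wall sugars and for being expressed when sugar is short. Myo-inositol also goes into membrane phosphoinositides, into inositol phosphates and, as galactinol, into the raffinose sugars that build up in drying tissue.

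Library totals ran from 16373617 to 21774520 reads in genes. Levels are FPKM, the reads of a gene per kilobase after a correction for library size. The summed FPKM of 65 light-harvesting and Rubisco small subunit genes was 11608 to 26798 in leaf, 1302 to 5681 in stem and 9.58 to 69.1 in root, and that of 14 Casparian strip and nitrate transporter genes was 562 to 4782 in root, at most 63.5 in stem and at most 56.2 in leaf. Those sums matched the labels of leaf and root. Laccase and fasciclin-like genes, the list for stem, did not set stem apart (191 to 946 FPKM, against 239 to 4805 in root). Of the libraries that matter below, leaf 0 min replicate 3 and stem 0 min replicate 1 stood apart in the pair. Root at 0 min has a library numbered 2 and a further 2 whose columns share 1 name, called x and y here.

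Root held the highest levels of both copies. The A06 copy stood at 13.9, 9.97 and 5.69 FPKM in root libraries 2, x and y at 0 min, at 11.6, 12.5 and 33.7 at 10 min, and at 24.1, 8.79 and 11.3 at 30 min. It then reached 145, 117 and 59.5 FPKM at 60 min and 197, 221 and 199 at 180 min. All libraries of 60 and 180 min lay above those of 0 min, whereas at 10 and 30 min the groups overlapped. On the means it stood 10.9-fold above 0 min at 60 min and 20.9-fold above it at 180 min. On the log2(FPKM + 1) scale, which understates changes of low genes, the difference from 0 min was 0.81 at 10 min, 0.49 at 30 min, 3.30 at 60 min and 4.32 at 180 min (SE 0.45 each, limma). The early A06 values rested on single libraries: that of 10 min was 0.34 without 10 min replicate 3, and that of 30 min was 0.09 without 30 min replicate 1, 0.18 without 0 min library y and -0.17 with precision weights.

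The D06 copy stood above 0 min earlier in root and ended lower. Its levels were 8.30, 9.59 and 6.27 FPKM at 0 min in libraries 2, x and y, 16.8, 22.7 and 25.3 at 10 min, and 30.9, 14.7 and 19.5 at 30 min. At 60 min they were 122, 87.5 and 43.8 FPKM, and at 180 min 68.5, 76.3 and 80.1. Every root library after 0 min lay above all 3 of 0 min for this copy. The log2 difference was 1.32, 1.28, 3.14 and 3.08 at 10, 30, 60 and 180 min (SE 0.33 each). The 60 and 180 min levels of this copy overlapped, while those of the A06 copy did not.

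Groups that do not overlap are common in root. Of 46711 genes kept (those at 1 FPKM or more in 3 or more of the tissue's libraries), 17.8% lay wholly above 0 min at 10 min, 23.4% at 30 min, 27.5% at 60 min and 29.9% at 180 min. The levels were seen before the pair was picked, so the rank of its changes is a description. A larger log2 change than that of the A06 copy was found for 379 genes at 60 min and 474 at 180 min. For the D06 copy these counts were 461 and 1196. With libraries rescaled to an equal sum of FPKM, the differences at 180 min were 3.71 for the A06 copy and 2.47 for the D06 copy, while the median of all root genes moved from -0.00 to -0.45. These are bulk tissues, in which more RNA per cell and a change in the share of cells that express the gene cannot be told apart. In the same root libraries the Casparian strip and nitrate transporter sum went from 1584 to 2666 FPKM at 0 min to 562 to 765 at 180 min, and had already reached 622 to 995 at 30 min. The laccase and fasciclin-like sum went from 239 to 364 FPKM at 0 min to 2106 to 4805 at 180 min, and the light-harvesting and Rubisco sum from 13.3 to 29.6 at 0 min to between 44.95 and 69.1 at 180 min. The part of these shifts in the result was not tested.

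**Figure D1:**
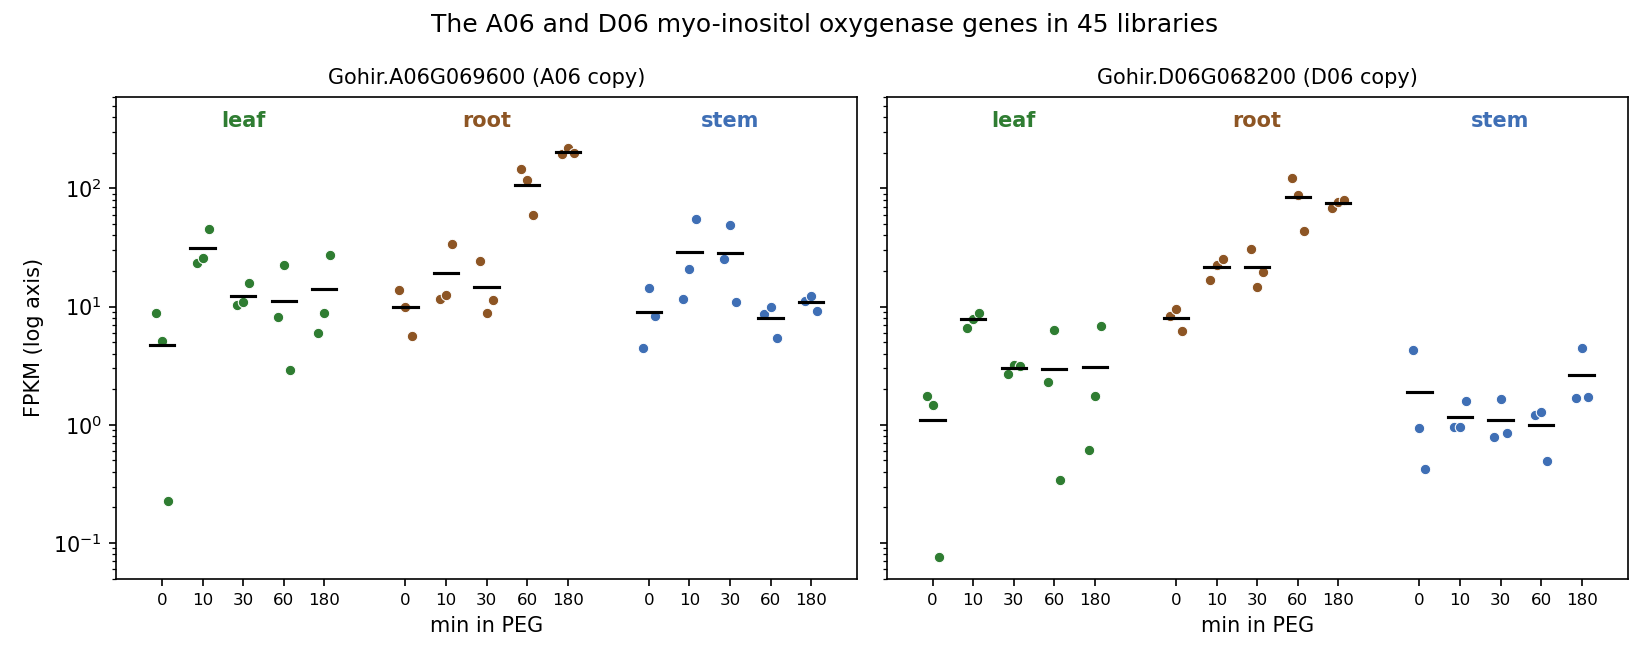
FPKM of the A06 copy (left) and the D06 copy (right) on a log axis in 45 libraries of leaf, root and stem at 0 to 180 min in PEG; points are libraries and black bars are group means. Root at 60 and 180 min holds the highest libraries of both copies, and leaf at 0 min has 1 library far under the other 2.

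In leaf the pair was highest at 10 min. The A06 copy stood at 8.91, 5.14 and 0.228 FPKM in replicates 1 to 3 at 0 min and at 23.6, 25.6 and 45.4 at 10 min. It was at 10.3, 10.8 and 15.7 FPKM at 30 min, at 8.24, 22.4 and 2.94 at 60 min and at 5.94, 8.76 and 27.3 at 180 min. The libraries of 10 and 30 min lay above all of 0 min, and those of 60 and 180 min overlapped with it. The D06 copy followed at lower levels, with 1.74, 1.48 and 0.0760 FPKM at 0 min, 6.56, 7.91 and 8.91 at 10 min and 2.68, 3.22 and 3.15 at 30 min. At 60 min it was listed at 2.30, 6.35 and 0.339 FPKM and at 180 min at 0.612, 1.75 and 6.87, again overlapping with 0 min.

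The leaf difference at 10 min was 2.89 on the log2 scale for the A06 copy (SE 0.76) and 2.17 for the D06 copy (SE 0.60), or 6.63-fold and 7.09-fold on the means. Of 46265 leaf genes, 27 had a larger log2 change than the A06 copy at 10 min and 121 a larger one than the D06 copy. Of those genes 6.76% lay wholly above 0 min at 10 min and 17.7% at 30 min. Replicate 3 of 0 min rested on 6 reads of the A06 copy and 2 of the D06 copy, against 251 and 49 in replicate 1. Without it the A06 difference at 10 min was 1.9998 and the D06 difference 1.74. The A06 differences at 30, 60 and 180 min were 1.63, 1.17 and 1.56 with that library and 0.74, 0.28 and 0.67 without it. Without leaf 180 min replicate 3 the differences at 180 min were 0.97 for the A06 copy and 0.12 for the D06 copy, and without leaf 60 min replicate 2 those at 60 min were 0.52 and 0.11. Of all leaf genes 12.2% lay wholly above 0 min at 60 min and 19.3% at 180 min.

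Stem showed the pair apart from each other. The A06 copy was at 4.46, 14.3 and 8.29 FPKM at 0 min, at 11.6, 20.7 and 55.5 at 10 min and at 25.1, 49.0 and 11.02 at 30 min, then at 8.62, 9.91 and 5.48 at 60 min and at 11.2, 12.4 and 9.25 at 180 min. Each stem group overlapped with 0 min, while 8.95, 12.5, 22.5 and 20.2% of all stem genes lay wholly above it at 10, 30, 60 and 180 min, and the log2 differences were 1.44, 1.45, -0.06 and 0.37 (SE 0.57 each). The D06 copy stayed at low levels, with 4.32, 0.949 and 0.420 FPKM at 0 min and 0.957, 0.952 and 1.61 at 10 min. Its later stem values ran from 0.788 to 1.64 at 30 min, from 0.499 to 1.27 at 60 min and from 1.67 to 4.48 at 180 min. Its differences from 0 min were -0.19, -0.25, -0.32 and 0.48 (SE 0.43 each). Stem 0 min replicate 1 held the highest D06 and the lowest A06 level of its group. Without it the D06 differences from 10 to 60 min turned positive (0.37, 0.31 and 0.24), that at 180 min was 1.04, and the A06 difference at 180 min was -0.01.

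Ordered by mean level over all 15 groups, the A06 copy was highest in root at 180 min (205 ± 13.6 FPKM, SD, n = 3) and next in root at 60 min (107 ± 43.7), and those groups overlapped neither with each other nor with the group after them. Leaf at 10 min followed at 31.5 ± 12.1 FPKM, and from there down to leaf at 0 min (4.76 ± 4.35) each group overlapped with its neighbour. For the D06 copy root at 60 min (84.6 ± 39.4) and root at 180 min (75.0 ± 5.95) overlapped and lay clear of root at 30 min (21.7 ± 8.31) and 10 min (21.6 ± 4.38). Root at 0 min (8.05 ± 1.68) came below a further gap and overlapped with leaf at 10 min (7.79 ± 1.18). All other leaf and stem groups had D06 means from 0.995 to 3.07 FPKM. Before PEG the root level of the D06 copy was above that of leaf by 2.20 and that of stem by 1.87 on the log2 scale (SE 0.50 each), while the A06 copy was higher in root than in leaf by 1.29 (SE 0.65) and differed from stem by 0.17 (SE 0.65). The A06 difference between root and leaf was 0.40 without leaf 0 min replicate 3.

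The copies contributed unequally, and the split differed by tissue. In leaf the A06 copy gave 78.8% of the pair's reads at 0 min (SD 4.44, n = 3) and 79.4, 79.9, 81.9 and 84.7% at the 4 later times. In stem it gave 95.1% at 10 min, 95.5% at 30 min, 89.3% at 60 min and 81.6% at 180 min. In root the copies were closer to even up to 60 min: the A06 share was 53.8 ± 7.88% at 0 min, 44.5 ± 11.3% at 10 min, 39.4 ± 3.95% at 30 min, 56.4 ± 1.85% at 60 min and 73.3 ± 1.74% at 180 min. All 3 root libraries of 180 min (71.3 to 74.4%) lay above every other root library, and those of 60 min spanned 54.3 to 57.6%. Stem at 0 min was split, since replicates 2 and 3 stood at 93.8 and 95.2% and replicate 1 at 50.8% (exact 95% interval 44.3 to 57.3%, counting error only), from 123 A06 reads and 119 D06 reads. The Casparian strip and nitrate transporter sum was 25.0 FPKM in that stem library and 10.4 and 12.4 in the other 2, and its part in the split was not tested. The sources used here do not say how reads that match both copies were counted, so the split between copies is uncertain.

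**Figure D2:**
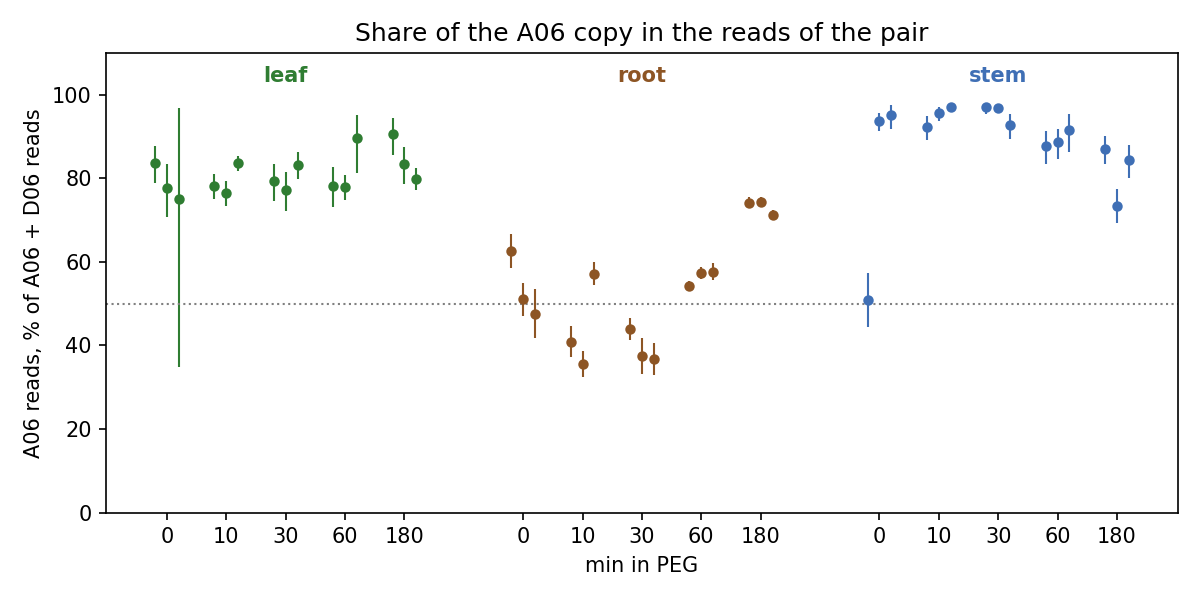
Reads of the A06 copy as a percentage of the reads of both copies in each of 45 libraries, with exact 95% binomial intervals; the dotted line marks 50%. The intervals of leaf and stem lie above the line except those of stem 0 min replicate 1 and of leaf 0 min replicate 3, which holds 6 and 2 reads, and root passes from 36.7 to 43.9% at 30 min to 71.3 to 74.4% at 180 min.

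The copies followed each other in leaf and root but not in stem. Across libraries the correlation of their log2(FPKM + 1) was 0.95 over 15 leaf libraries, 0.93 over 15 root libraries and -0.06 over 15 stem libraries, and 0.74 over all 45, as a description of libraries that share groups and scaling. In leaf the libraries within 1 group also went together. At 60 min both copies were highest in replicate 2 and lowest in replicate 3, and at 180 min both were highest in replicate 3 and lowest in replicate 1. In stem 0 min replicate 1 went the other way (A06 4.46 and D06 4.32 FPKM), and D06 levels were low. Within each later stem group the library highest in A06 was also highest in D06: 55.5 and 1.61 FPKM at 10 min, 49.0 and 1.64 at 30 min, 9.91 and 1.27 at 60 min, 12.4 and 4.48 at 180 min. The lowest libraries of those groups matched only at 60 min.

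A further 9 genes carry the myo-inositol oxygenase description, and the pair dominated the family in root. Of the FPKM summed over all 11 genes, the pair gave 80.8% in root at 0 min, 89.9, 81.6, 95.4 and 90.8% at 10, 30, 60 and 180 min. The family sum in root went from 21.9 ± 4.82 FPKM at 0 min to 309 ± 12.6 at 180 min. In leaf the pair gave 37.8% at 0 min, 65.7% at 10 min, and 43.4, 34.1 and 59.5% at the later times, and in stem between 54.3 and 77.1%. Of the 9 other genes, 5 reached 1 FPKM in 3 or more of the 45 libraries. Gohir.D12G210500 (D12, 56622669 to 56625079), with the name Inositol oxygenase 4, Gohir.A03G000054, Gohir.A12G207950 and Gohir.D12G158701 never exceeded 0.544 FPKM and were not tested.

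A second pair on chromosome 5, Gohir.A05G132700 (A05, 12966866 to 12969877) and Gohir.D05G134700 (D05, 11581030 to 11589252), was nearly missing from root. Its root libraries never exceeded 0.534 and 0.704 FPKM. In leaf the A05 gene stood at 6.73, 1.81 and 0.525 FPKM at 0 min and at 14.6, 6.95 and 25.8 at 30 min, a log2 change of 2.22 (SE 0.87, limma adjusted p = 0.096), which did not pass. Its leaf libraries ranked like those of the A06 copy at 60 min (10.6, 26.1 and 4.85 FPKM) and at 180 min (0.977, 4.65 and 16.1 FPKM). In stem 0 min replicate 1, where the D06 copy was high, the A05 and D05 genes were at 0.696 and 0.253 FPKM, against 12.1 and 10.6 in replicate 2.

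Genes of a further pair, on chromosome 10, were called higher in root at 180 min. Gohir.A10G063900 (A10, 7655196 to 7658297) rose from 2.37, 0.780 and 2.22 FPKM at 0 min to 31.2, 15.9 and 10.2 at 180 min (a change of 2.77 log2 units, SE 0.46, limma adjusted p = 0.000203). Gohir.D10G065500 (D10, 6700297 to 6703283), with the name Inositol oxygenase 1, rose from 1.45, 1.03 and 2.73 FPKM to 7.23, 6.30 and 6.15 (a change of 1.51 log2 units, SE 0.37, adjusted p = 0.00358). Both calls held on leaving out any single root library, and 28.5% of all root genes were called higher at that time. Gohir.D03G172500 (D03, 54573164 to 54575686) stood at 0.0568, 0.171 and 0 FPKM in root at 0 min and at 2.25, 2.53 and 1.36 at 180 min, and was listed at 0 in every leaf and stem library. It entered the root fit only through libraries of 60 and 180 min, so that it had to be higher there, and its change is given with no test. At 10, 30 and 60 min limma and limma-voom called 0 of the 3 root genes fitted, and 0 had an unadjusted p under 0.05, except that 1 was called at 30 min without root 30 min replicate 1.

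Outside root the family gave a single call, which is not read as a result. Gohir.A10G063900 stood in leaf at 3.44, 0.792 and 1.06 FPKM at 30 min against 0.197, 0.205 and 0.0351 at 0 min (a change of 1.15 log2 units, SE 0.34). It entered the leaf fit only through 10 min replicate 3 and 30 min replicates 1 and 3, the only 3 leaf libraries at 1 FPKM or more. The filter thus favoured a higher value after 0 min, and the change is given with no test. The call was lost without leaf 0 min replicate 1, 2 or 3, and the gene left the fit without any of the 3 libraries that let it in. In stem limma and limma-voom called 0 of 3 tested genes at each time, with 0 at an unadjusted p under 0.05. Between tissues the response at 180 min was larger in root than in leaf for Gohir.A10G063900 by 2.61 on the log2 scale (interaction, limma adjusted p = 0.00111). For Gohir.D10G065500, which was too low to be fitted in leaf, the difference was 1.35, given with no test. Leaf means at 0 and 180 min were 0.146 and 0.275 FPKM for Gohir.A10G063900 and 0.267 and 0.417 for Gohir.D10G065500. At such levels log2(FPKM + 1) understates changes.

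**Figure D3:**
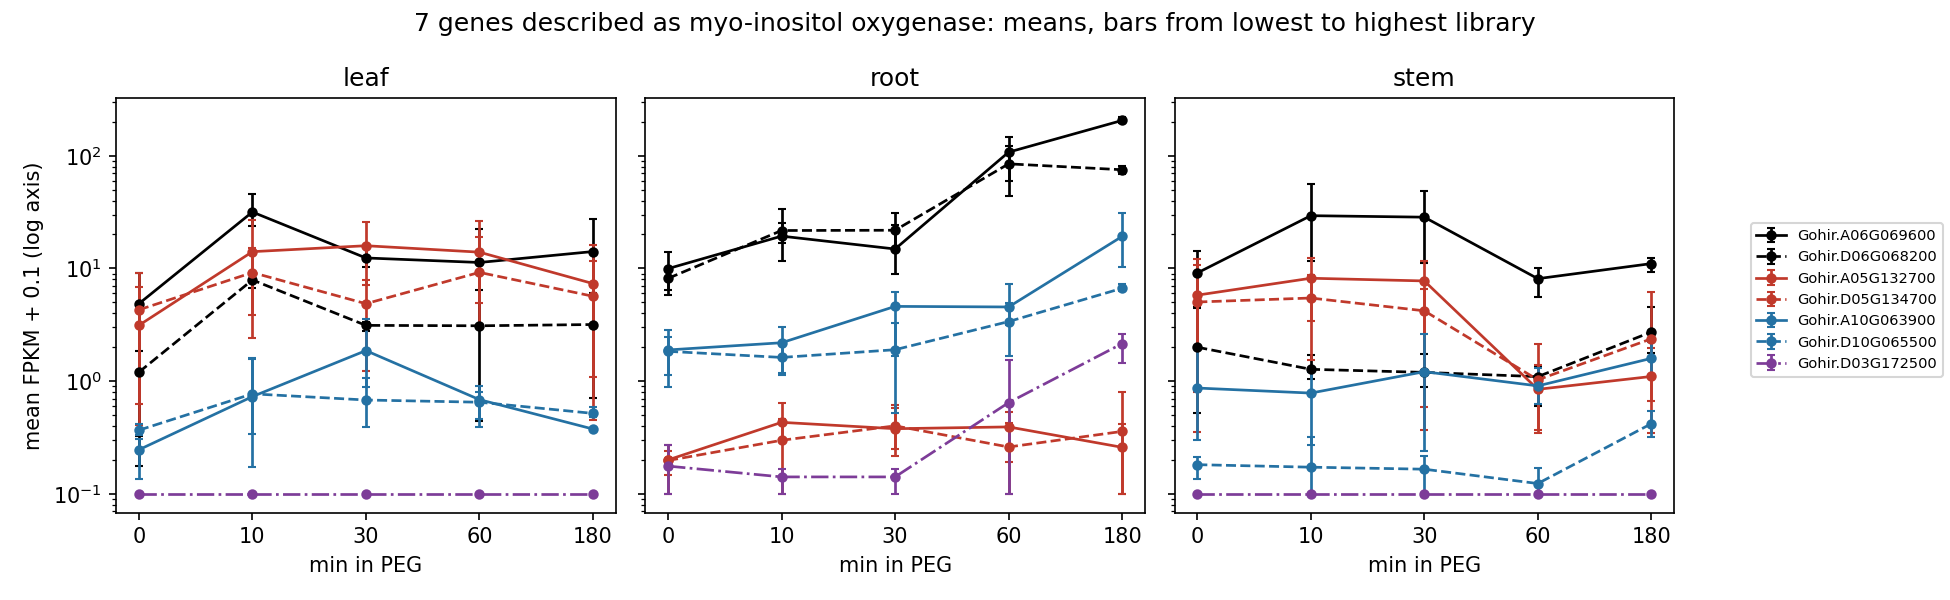
Mean FPKM plus 0.1 on a log axis for 7 genes described as myo-inositol oxygenase in leaf, root and stem, against min in PEG; bars run from the lowest to the highest of 3 libraries, and solid and dashed lines are A and D copies. The A06 and D06 genes top root, the A05 and D05 genes are near 0 there, and the A10, D10 and D03 genes are highest in root at 180 min.

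None of the 8 nearest genes, 2 on each side of each copy, came near the pair's root level at 180 min. The gene next to the A06 copy on its lower-coordinate side, Gohir.A06G069500, has no description and went from 3.81 to 0.855 FPKM in root between 0 and 180 min. Its counterpart beside the D06 copy is Gohir.D06G068100, and an NB-ARC gene, of the disease resistance type, lies beyond each of them. On the other side the neighbours differ, a Myb-like gene (Gohir.A06G069700) at A06, at most 0.150 FPKM in the group means of 0 and 180 min, and a Rab-GTPase-TBC gene (Gohir.D06G068266) at D06, 19.3 FPKM in root at 0 min and 23.6 at 180 min. A protein kinase gene further along A06, Gohir.A06G069800, went from 0.293 to 6.87 FPKM in root and was listed at 0 in leaf and stem at those times. No test was run on the neighbours.

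Genes most like the pair over the 45 libraries were ranked by the correlation of their log2(FPKM + 1) with the mean of both copies, a description among 54622 genes of which 410 exceeded 0.8. The 5 described genes with the highest values were Gohir.A04G013800 (r = 0.89), Gohir.A11G046400, a patatin-like phospholipase (0.88), Gohir.A07G004200 (0.88), Gohir.D08G230200 (0.88) and Gohir.D13G130000 (0.88). Their likeness lay mainly in root: within root r was 0.94 to 0.98, against 0 to 0.63 within leaf and 0 to 0.75 within stem. Gohir.A11G046400 had a mean of 0 FPKM in every leaf and stem group. Gohir.D08G230200, a glutamate dehydrogenase that links amino acid and carbon metabolism, had a root mean of 2.63 FPKM at 0 min, 139 at 60 min and 299 at 180 min. Gohir.D13G130000, a sugar transporter family gene, had 10.7, 127 and 258 FPKM. The lowest values were -0.88 for Gohir.A05G304400, -0.86 for Gohir.D08G107300 and -0.85 for Gohir.D05G218760.

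Other genes of inositol and glucuronate metabolism were gathered in 10 lists by words in the descriptions, 222 genes without the pair, of which 164 were tested in leaf, 158 in root and 163 in stem. At 180 min limma called 37 higher and 48 lower in root, 23 and 31 in leaf, and 17 and 56 in stem. Over all genes the shares called higher and lower were 28.5 and 26.9% in root, 9.89 and 9.61% in leaf, and 15 and 14.3% in stem. Rescaling to an equal sum of FPKM made the root counts 21 and 73. The leaf counts were 14 and 13 without 180 min replicate 1, and 18 or 17 were lower without 0 min or 180 min replicate 2. The stem count of lower genes was 37 or 36 without 180 min replicate 1 or 2.

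Counts at the early times are given beside the shares of all genes, and no test compared them between tissues. In leaf 3 genes were higher and 1 lower at 10 min, and 30 and 9 at 30 min, when 8.33 and 9.5% of all leaf genes were called (0.884 and 0.625% at 10 min). In root 21 were higher and 4 lower at 10 min and 33 and 13 at 30 min, against 8.16 and 7.03% and 17.6 and 16.6% of all genes. With an equal sum of FPKM the 30 min counts were 24 and 16 in leaf and 29 and 23 in root. In stem limma called 0 at 10 min, with 21 of 163 at an unadjusted p under 0.05 and 0 by limma-voom, where 1 of 47698 genes (0.0021%) was called higher and 0 lower. Without single libraries the leaf count of higher genes at 30 min fell to 18 or 19 (0 min replicate 1 or 2, 30 min replicate 1 or 2). At 10 min it ran from 0 to 5, since it was 0 on leaving out 0 min replicate 2 or 10 min replicate 1, 1 on leaving out 0 min replicate 3, and 5 on leaving out 10 min replicate 2, 60 min replicate 2 or 60 min replicate 3. The root count of lower genes at 10 min fell to 2, 1 and 2 without 0 min libraries x and y and 10 min replicate 1.

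By 60 min the calls were 3 higher and 3 lower in leaf (2.04 and 1.9% of all genes), 38 and 31 in root (19.5 and 19.1%) and 12 and 36 in stem (13.3 and 11.6%), and stem at 30 min had 5 and 0 (1.61 and 0.759%). With an equal sum of FPKM the root counts at 60 min were 28 and 36. The stem count of lower genes at 60 min was 18, 19, 20 and 13 without 0 min replicates 2 and 3 and 60 min replicates 2 and 3, and the stem count at 30 min ran from 0 to 6, with 0, 1, 3 and 1 without 0 min replicate 3 and 30 min replicates 1, 2 and 3. The leaf counts at 60 min ran from 1 to 6 higher (1 without 0 min replicate 3, 6 without 10 min replicate 1 or 60 min replicate 2) and from 0 to 4 lower (0 without 0 min replicate 2 or 3 or 60 min replicate 3, 1 without 60 min replicate 1).

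Before PEG, 64 of 179 genes tested over all tissues were higher in leaf than in root and 33 lower (23.7 and 23.5% of all genes), 23 were higher in leaf than in stem and 41 lower (17.7 and 12.9%), and 25 were higher in root than in stem and 70 lower (21.1 and 20.9%). The difference between tissues in log2 change at 180 min, which can come from a rise in one or a fall in the other, was called above 0 for 39 and below 0 for 33 as leaf minus root (16.1 and 18.3% of all genes). As leaf minus stem it was above 0 for 30 and below 0 for 8 (5.31 and 5.54%), and as root minus stem above 0 for 34 and below 0 for 10 (15 and 13.1%). With an equal sum of FPKM the last pair of counts was 21 and 34, and the median of all genes moved from 0.02 to -0.41.

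**Figure D4:**
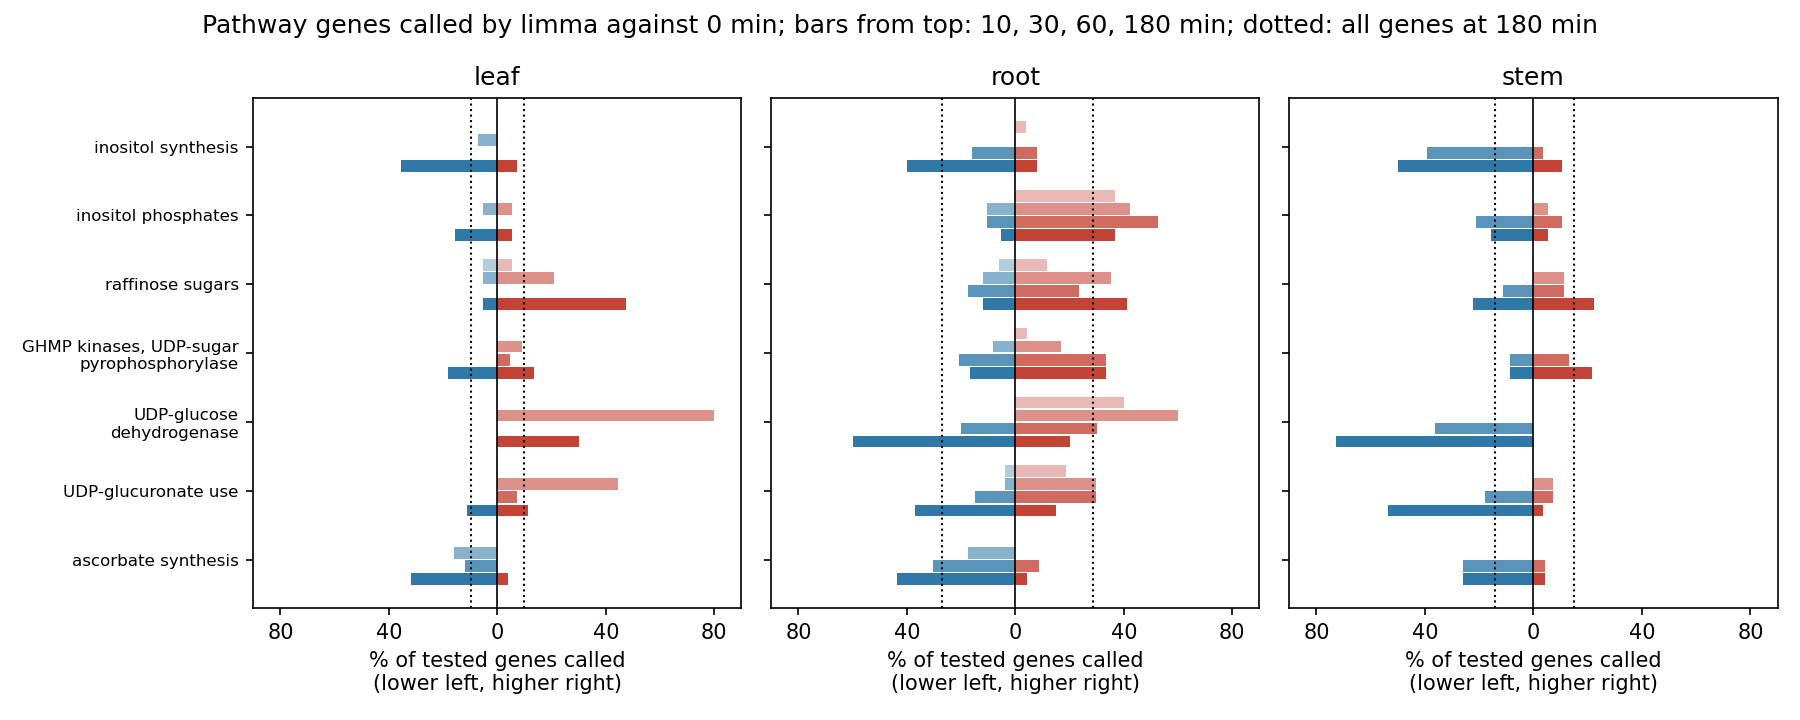
Percentage of tested genes of 7 lists called by limma against 0 min, lower to the left and higher to the right, in leaf, root and stem; the 4 bars of a list are 10, 30, 60 and 180 min from the top, and dotted lines mark the share of all genes called at 180 min. UDP-glucose dehydrogenase genes are called higher in leaf and root at 30 min and lower in root and stem at 180 min.

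Among the listed genes of inositol synthesis, more were called lower than higher at 180 min, and no test set the list against all genes. Shares of all genes called higher and lower were 28.5 and 26.9% in root, 9.89 and 9.61% in leaf, and 15 and 14.3% in stem. Inositol synthesis, meaning inositol-3-phosphate synthase, which makes inositol phosphate from glucose phosphate, and the inositol monophosphatase family, which frees inositol, had 2 higher and 10 lower of 25 in root at 180 min, 2 and 10 of 28 in leaf, and 3 and 14 of 28 in stem. The leaf count of lower genes fell to 5, 5, 3 and 5 without 0 min replicates 1 and 2 and 180 min replicates 1 and 2, and the stem count to 9, 8, 8 and 8 without 0 min replicates 2 and 3 and 180 min replicates 1 and 2. The family also holds phosphatases of other substrates. A synthase, Gohir.A11G199700 (A11, 41816175 to 41818961), fell in leaf at 30 min from 3.75 ± 1.35 to 0.537 ± 0.217 FPKM (a change of -1.60 log2 units, SE 0.31, limma adjusted p = 0.00394). Against the list, the monophosphatase family gene Gohir.D06G128700 (D06, 43420596 to 43423186) was higher in root at 180 min, at 24.2 ± 6.25 FPKM against 0.508 ± 0.300 at 0 min (a change of 4.05 log2 units, SE 0.22). In stem it went from 0.713 ± 0.765 to 11.2 ± 6.52 (a change of 2.73 log2 units). Its means at 0 min were under the 1 FPKM of the filter, which favoured a higher value later. Both changes are therefore given with no test.

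Both tested inositol transporters, which carry inositol across membranes, were called lower in root at 180 min, when 26.9% of all root genes were. Only 1 was called on leaving out any 1 of the 3 root 0 min libraries. Gohir.D10G043600 (D10, 3963549 to 3966509), named probable inositol transporter 2, went from 8.31 ± 3.49 to 2.42 ± 0.704 FPKM in root at 180 min (a change of -1.40 log2 units, SE 0.24, limma adjusted p = 0.000254). In stem it rose from 3.49 ± 0.326 to 16.1 ± 2.21 FPKM (a change of 1.93 log2 units, SE 0.22, adjusted p = 8.05e-05). Its A copy Gohir.A10G042580 (A10, 4254085 to 4256996) went in root from 2.61 ± 1.44 to 0.543 ± 0.101 FPKM, a change of -1.15 log2 units. That change is given with no test, since 1 of the 2 calls was lost on leaving out any root 0 min library, where this gene had its higher level.

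Of 19 genes of inositol phosphates and inositol lipid synthesis, 7 rose in root at 10 min and 0 fell, 8 rose and 2 fell at 30 min, 10 and 2 at 60 min, and 7 and 1 at 180 min. The shares of all root genes called higher were 8.16, 17.6, 19.5 and 28.5% at those times, and those called lower 7.03, 16.6, 19.1 and 26.9%. The count at 60 min was 6 without 0 min library y or 60 min replicate 2, and the count at 180 min was 3 with an equal sum of FPKM. Gohir.A11G103400 (A11, 10809800 to 10825814), with an inositol hexakisphosphate domain found in phytase-like proteins rather than kinases, rose at 10 min from 1.10 ± 0.661 to 14.9 ± 6.49 FPKM (a change of 2.90 log2 units, SE 0.33, limma adjusted p = 7.82e-05). Gohir.A05G191900 (A05, 18946093 to 18950306), inositol-pentakisphosphate 2-kinase, which makes phytic acid, rose from 3.30 ± 0.842 to 8.99 ± 2.41 (a change of 1.20 log2 units, adjusted p = 0.00343).

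Galactinol, raffinose and stachyose genes had 9 higher and 1 lower of 19 in leaf at 180 min, 7 and 2 of 17 in root, and 4 and 4 of 18 in stem. Shares of all genes called higher and lower were 9.89 and 9.61% in leaf, 28.5 and 26.9% in root, and 15 and 14.3% in stem. In stem the counts fell to as few as 2 higher (without 0 min replicate 3 or 180 min replicate 1 or 2) and 1 lower (without 0 min replicate 3 or 180 min replicate 1), with 2 lower without 0 min replicate 2 or 180 min replicate 2. Raffinose synthase 2, Gohir.D12G189300 (D12, 54053357 to 54057567), which joins galactose from galactinol to sucrose, rose in root from 28.6 ± 14.1 to 91.3 ± 44.1 FPKM at 10 min and 513 ± 99.0 at 180 min (changes of 1.68 and 4.24 log2 units, SE 0.39, limma adjusted p = 0.0103 and 1.03e-06). Stachyose synthase Gohir.D12G127100 (D12, 43460643 to 43464171) rose in leaf from 1.02 ± 0.343 to 24.9 ± 8.32 FPKM at 180 min (a change of 3.65 log2 units, SE 0.24, adjusted p = 7.99e-07).

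Downstream of the oxygenase, 25 genes with a GHMP kinase domain, the fold of glucuronokinase and related sugar kinases, or named UDP-sugar pyrophosphorylase were listed. In root at 180 min 8 were higher and 4 lower of 24, when 28.5 and 26.9% of all root genes were called. The counts were 4 and 13 with an equal sum of FPKM and 4 and 8 with quantile scaling. The count of lower genes was 2 without root 180 min replicate 2. Gohir.D09G029800 (D09, 9854233 to 9857501) rose from 4.14 ± 0.611 to 59.8 ± 13.9 FPKM (a change of 3.54 log2 units, SE 0.18, limma adjusted p = 7.42e-09) and Gohir.A09G030100 (A09, 10730867 to 10734228) from 6.12 ± 1.37 to 70.2 ± 13.6 (a change of 3.32 log2 units, SE 0.22, adjusted p = 5.12e-08). The description does not say which sugar these 2 act on. L-arabinokinase, Gohir.A06G107500 (A06, 49093379 to 49105504), which returns free arabinose to the sugar phosphate pool, rose in root from 12.2 ± 1.65 to 39.7 ± 7.10 FPKM (a change of 1.61 log2 units, adjusted p = 3.20e-06).

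On the other route to UDP-glucuronate lie UDP-glucose dehydrogenase genes, which oxidise UDP-glucose. At 30 min 8 of 10 were higher in leaf and 6 of 10 in root, against 8.33 and 17.6% of all genes. In root at 180 min 2 were higher and 6 lower of 10, in leaf 3 of 10 were higher, and in stem 8 of 11 were lower. Shares of all genes at 180 min were 28.5% higher and 26.9% lower in root, 9.89% higher in leaf and 14.3% lower in stem. The leaf count at 180 min was 1 without 0 min replicate 1 or 3 or 180 min replicate 1 or 3. The leaf count was 3, 3, 4 and 3 without 0 min replicates 1 and 2 and 30 min replicates 1 and 2, the root count at 30 min was 3 without 0 min library y, and the stem count was 5, 4 and 5 without 0 min replicate 2 and 180 min replicates 1 and 2. Gohir.D11G076100 (D11, 6464858 to 6467784) rose in root from 174 ± 46.4 to 425 ± 39.7 FPKM at 10 min and fell to 26.5 ± 5.51 at 180 min (changes of 1.32 and -2.65 log2 units, SE 0.26, limma adjusted p = 0.00401 and 1.85e-06). Gohir.D07G073700 (D07, 8596205 to 8598498) rose in root from 6.89 ± 2.14 to 61.2 ± 3.89 FPKM at 180 min (a change of 3.01 log2 units, SE 0.23, adjusted p = 1.95e-07) and fell in stem from 58.4 ± 28.2 to 6.21 ± 3.51 (a change of -3.07 log2 units, SE 0.49, adjusted p = 0.000724).

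Genes listed for the use of UDP-glucuronate in wall sugars had 12 called higher of 27 in leaf at 30 min, against 8.33% of all genes. At 180 min 4 were higher and 10 lower of 27 in root and 1 and 15 of 28 in stem. Shares of all genes were then 28.5 and 26.9% in root and 15 and 14.3% in stem. The list also takes genes described as galacturonosyltransferase, which act on UDP-galacturonate. With an equal sum of FPKM the root counts were 1 and 13, and 6 were lower without root 0 min library x or y or with quantile scaling. UDP-glucuronate 4-epimerase 1, Gohir.D04G086700 (D04, 21626924 to 21629184), which makes UDP-galacturonate for pectin, fell from 326 ± 19.1 to 28.9 ± 6.37 FPKM in root and from 359 ± 43.3 to 48.1 ± 7.78 in stem (changes of -3.47 and -2.88 log2 units, SE 0.27 and 0.24, limma adjusted p = 2.63e-07 and 1.30e-05).

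Ascorbate synthesis genes had 1 higher and 10 lower of 23 in root, 1 and 8 of 25 in leaf and 1 and 6 of 23 in stem at 180 min. Shares of all genes called higher and lower were 28.5 and 26.9% in root, 9.89 and 9.61% in leaf, and 15 and 14.3% in stem. The leaf count of lower genes ran from 3 to 5 on leaving out any 1 of the 6 libraries of 0 and 180 min, and the stem count was 11 without 0 min replicate 1 and 3 without 0 min replicate 2 or 3 or 180 min replicate 2. Mannose-6-phosphate isomerase 2, Gohir.D11G170000 (D11, 18704450 to 18708120), the entry to the mannose route, fell in root from 29.1 ± 7.16 to 2.37 ± 0.155 FPKM (a change of -3.13 log2 units, SE 0.18, limma adjusted p = 2.02e-08). L-gulonolactone oxidase 3, Gohir.A07G022900 (A07, 2956305 to 2960920), of the route through gulonate, rose in leaf from 2.13 ± 0.767 to 9.86 ± 1.32 (a change of 1.82 log2 units, SE 0.29, adjusted p = 0.000707). The list of ascorbate use held mostly ascorbate oxidase homologues, and 3 of 8 were higher and 3 lower in root at 180 min, or 0 and 3 with an equal sum of FPKM.

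Genes known to follow sugar supply, asparagine synthetase and trehalose phosphate genes, had 18 higher and 13 lower of 54 in root at 180 min, where 28.5 and 26.9% of all genes were called. In leaf 14 and 7 of 46 were called (9.89 and 9.61% of all genes), and in stem 8 and 11 of 45 (15 and 14.3%).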

How the data were processed

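RNA from leaf, root and stem was sequenced. The submitters' processing notes name HISAT2 2.0.5, an aligner, and featureCounts 1.5.0-p3, a read counter. The genome build, the strand setting and the treatment of reads shared by A and D copies are not stated in the sources used here. The authors deposited FPKM per gene with coordinates and descriptions. Undoing the length and library scaling returned whole reads at 100% of values (tolerance 0.01), and the authors' scaling equals median-of-ratios size factors. For 1 kb of gene, 1 read stands for 0.0440 to 0.0899 FPKM. In root at 0 min 2 columns share a name, so their order is unknown. For each tissue limma 3.58.1 (R 4.3.3, trended and robust) was fitted to log2(FPKM + 1) of genes at 1 FPKM or more in 3 libraries, with all 15 libraries sharing the spread. Tissues were compared in 1 fit of 45 libraries (54622 genes). Calls had a Benjamini-Hochberg adjusted p under 0.05 over all genes fitted. The fits were tested on simulated data. SDs are over 3 libraries a group. SEs are those of the limma fit, whose spread is shared by the 15 libraries of a tissue, or by 45 for comparisons between tissues, and moderated across genes. Intervals cover counting error only. The members and lists were chosen with earlier results of these data known. Named genes were the pair, the other oxygenase genes, the 2 genes of each list with the smallest F test p in each tissue, the 5 most and 3 least alike described genes, and 2 neighbours a side; not all are printed. Python 3.11.15, numpy 2.4.6, scipy 1.17.1, pandas 2.3.3 and matplotlib 3.10.9 were also used. Alternatives were another pseudocount, filter, scaling, weighting, fit size, a replicate block, leaving out each library, and limma-voom on the recovered reads, which was chosen after seeing the data. No sequence of either gene was used here.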

Additional observations from a re-analysis of the deposited data

Results flagged for a closer look

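These 6 genes of the inositol and glucuronate lists had log2 changes at 180 min that differed between tissues. All but Gohir.D03G172500 and Gohir.D10G065500 were tested by the interaction of tissue and time in the limma fit of 45 libraries. Values are differences of log2 changes. For the oxygenase gene Gohir.A10G063900 leaf minus root was -2.61 (limma adjusted p = 0.00111) and root minus stem 2.18 (0.00721). Its means at 0 and 180 min were low in leaf (0.146 and 0.275 FPKM) and stem (0.767 and 1.49), where this scale understates changes. For Gohir.D10G065500 leaf minus root was -1.35 and root minus stem 1.23, given with no test. It was too low to be fitted in leaf or stem alone and entered this fit mainly through root. Its stem mean went from 0.0811 to 0.318 FPKM and its root mean from 1.74 to 6.56. The log2(FPKM + 1) scale understates changes at such low stem levels. For Gohir.D03G172500 the values were -1.48 and 1.48; it is listed at 0 in leaf and stem and was fitted only through root libraries of 60 and 180 min, which fixed the direction, so no test is given.

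The inositol transporter Gohir.D10G043600 gave 1.58 for leaf minus root, -1.75 for leaf minus stem and -3.33 for root minus stem (limma adjusted p = 0.000211, 0.000337 and 7.93e-10). For the raffinose synthase gene Gohir.D04G056600 leaf minus root was 2.44, leaf minus stem 5.54 and root minus stem 3.09 (limma adjusted p = 0.00467, 8.80e-07 and 0.000637). Its leaf mean went from 21.8 ± 15.1 to 186 ± 18.9 FPKM and its stem mean from 38.4 ± 9.30 to 6.76 ± 0.0954 (n = 3 each). For the UDP-glucose dehydrogenase Gohir.D07G073700 leaf minus root was -3.89, leaf minus stem 2.19 and root minus stem 6.08 (limma adjusted p = 7.92e-06, 0.0193 and 3.13e-09). Its leaf minus stem call was lost without leaf 0 min replicate 1 or 2, leaf 180 min replicate 3, stem 0 min replicate 3 or stem 180 min replicate 1, with a highest adjusted p of 0.0782.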

How the results depend on the processing

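No named gene that was called changed sign, and no member's change larger than its spread did. Member changes within their spread did, among them these: the D06 changes in stem at 10 to 60 min were above 0 without stem 0 min replicate 1 and with precision weights (0.18, 0.09 and 0.10), and the A06 change in root at 30 min was -0.17 with precision weights. Of 210 values that answer a comparison, under alternatives other than leaving out a library, 193 kept their direction and stayed within 1.5 times or 1 SD. With an equal sum of FPKM, the root counts at 180 min were 21 higher and 73 lower (37 and 48), the D06 change in root at 180 min was 2.47 (3.08), the leaf minus root difference of changes was below 0 for 18 genes (33), and the root minus stem difference was above 0 for 21 and below 0 for 34 (34 and 10), so that its balance turned. With quantile scaling the root changes at 180 min were 3.68 for the A06 copy and 2.63 for the D06 copy. With precision weights, whose estimation did not converge in every fit, 83 genes were called in leaf and 98 in stem at 10 to 60 min (41 and 48), and the differences of changes were above and below 0 for 67 and 22 genes as leaf minus stem and 65 and 27 as root minus stem. Limma-voom gave 5 below 0 as leaf minus stem (8). A fit of 6 libraries gave 8 higher and 31 lower in stem at 180 min (17 and 56).

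Without single libraries the counts at 180 min ran from 14 to 25 higher and 13 to 31 lower in leaf, 33 to 38 and 40 to 57 in root, and 13 to 19 and 36 to 63 in stem. Counts at 10 to 60 min ran from 25 to 45 in leaf, 67 to 93 in root and 22 to 62 in stem. Differences of changes above and below 0 ran from 30 to 44 and 28 to 34 as leaf minus root, 21 to 40 and 6 to 11 as leaf minus stem, and 29 to 38 and 6 to 17 as root minus stem, where 17 came without root 180 min replicate 3 and 6 without root 0 min library y. The A06 and D06 changes at 180 min ran from 0.67 to 2.18 and 0.12 to 1.26 in leaf, 4.01 to 4.59 and 2.93 to 3.20 in root, and -0.01 to 0.74 and 0.08 to 1.04 in stem. The cause of these shifts was not tested.

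Replicate numbers were not used as pairs in the main fits, and with 3 libraries a group the data cannot settle whether they pair the libraries. Deviations of same-numbered libraries correlated above 0.1 in 4 of 12 comparisons in leaf, 2 of 4 in root and 5 of 12 in stem. The correlations ran from -0.507 to 0.541 in leaf, -0.0508 to 0.12 in root and -0.408 to 0.608 in stem. With a replicate block, possible in leaf and stem, 20 genes were higher and 25 lower in leaf at 180 min, 34 were called in leaf at 10 to 60 min, 16 were higher and 51 lower in stem at 180 min, and 40 were called in stem at 10 to 60 min. The planned edgeR test was not run; limma-voom on the recovered reads took its place. The D06 copy in stem and leaf 0 min replicate 3 rest on few reads, which limits their precision.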
